A study of Mus musculus with 11 samples.

Results

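The genes described here encode the machinery that copies DNA in the S phase of the cell cycle. A list of 44 of them was matched by symbol to the gene identifiers of the count tables, and all 44 were found among 46078 identifiers. They cover origin licensing (8 genes), the replicative helicase (12), polymerases and primase (8), the sliding clamp with its loader and the single-strand binding proteins (9), nucleotide supply (3), and DNA maturation with chromatin assembly (4). Messenger RNA was sequenced from the embryonic dorsal telencephalon of CD-1 mice, the part of the forebrain that forms the neocortex, in 11 libraries. Of these, 3 came from wild-type brains electroporated in utero at E12.5 with pCIG2-L3mbtl3, a GFP plasmid that also carries L3mbtl3, and 3 from wild-type brains that received the pCIG2 plasmid alone; GFP-positive cells of both were sorted at E15.5. Another 2 libraries of microdissected E12.5 tissue are labelled L3mbtl3 -/-, and 3 control libraries of the same tissue are labelled L3mbtl3 +/- (2 heterozygotes) and wild-type (1). The heterozygote controls thus carry the mutant allele as well, and the sorted cells are whatever progenitors and progeny held GFP at E15.5.

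In G1 the origin recognition complex (ORC), Cdc6 and Cdt1 load a ring of the proteins Mcm2 to Mcm7 onto DNA. In S phase Cdc45 and the GINS complex join the ring to form the active helicase, polymerase alpha with primase lays down primers, and polymerases delta and epsilon extend them on the PCNA clamp that replication factor C (RFC) loads. Many of these genes are transcribed late in G1 under E2F factors, and in the embryonic neocortex the cells that replicate are the dividing progenitors, while neurons have left the cell cycle.

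Because E2F sites are the best known shared feature of replication gene promoters, the 250 bases before the annotated start were searched in the RefSeq promoter table (GRCm38.p6), which held 37 of the 44 genes. The search letters were TTTGGCGC, TTTGCCGC, TTTCGCGC and TTTCCCGC on both strands, and matches could overlap. They occurred before 9 of the 37 replication genes (24.32%), against 2.16% of 27025 genes in the table and 3.82% of the 11252 of them that were tested between the stages. The 9 genes were Orc1, Orc3, Cdc6, Mcm5, Mcm6, Mcm7, Gins3, Pola1 and Rfc3. CCAAT, the letters read by the factor NF-Y, occurred on either strand before 24 of 37 replication genes (64.86%), against 37.49% of the genes in the table and 40.23% of those tested between the stages. TTTGAA, the core of the CHR element known from genes of mitosis, occurred before 5 of 37 (13.51%), against 18.26% of the table and 12.62% of the genes tested between the stages. A match describes letters and does not show binding. A set of 4 windows with E2F letters is shown, picked to hold overlapping, repeated and single matches. Beside them is 1 window without the letters from Orc6, which was not called lower between the stages in the main test. Capitals mark the E2F letters, and each window is written in the direction of its gene. The Orc6 window is cut to the 118 bases that lie outside an exon of the neighbouring gene Vps35.
Mcm5, chr8:75109259-75109508, plus strand: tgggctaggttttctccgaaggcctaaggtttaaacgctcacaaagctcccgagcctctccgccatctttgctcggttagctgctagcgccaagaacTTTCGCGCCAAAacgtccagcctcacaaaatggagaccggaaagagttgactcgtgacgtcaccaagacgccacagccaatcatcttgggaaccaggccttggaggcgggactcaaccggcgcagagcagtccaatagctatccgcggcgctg
Mcm6, chr1:128359706-128359955, minus strand: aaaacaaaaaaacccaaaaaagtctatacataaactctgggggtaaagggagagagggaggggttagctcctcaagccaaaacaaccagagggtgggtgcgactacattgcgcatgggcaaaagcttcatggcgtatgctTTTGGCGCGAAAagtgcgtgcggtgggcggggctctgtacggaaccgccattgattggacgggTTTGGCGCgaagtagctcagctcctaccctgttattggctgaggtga
Gins3, chr8:95633309-95633558, plus strand: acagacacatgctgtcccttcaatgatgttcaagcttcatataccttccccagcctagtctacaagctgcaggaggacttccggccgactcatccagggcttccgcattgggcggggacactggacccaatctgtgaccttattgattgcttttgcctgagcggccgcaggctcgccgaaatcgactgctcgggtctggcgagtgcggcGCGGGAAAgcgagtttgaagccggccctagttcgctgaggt
Pola1, chrX:93632156-93632405, minus strand: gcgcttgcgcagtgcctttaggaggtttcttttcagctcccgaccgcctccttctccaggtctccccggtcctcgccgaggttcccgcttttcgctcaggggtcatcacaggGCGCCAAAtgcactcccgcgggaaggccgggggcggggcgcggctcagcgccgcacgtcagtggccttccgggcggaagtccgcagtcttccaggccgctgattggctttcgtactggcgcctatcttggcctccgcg
Orc6, chr8:85299514-85299631, plus strand: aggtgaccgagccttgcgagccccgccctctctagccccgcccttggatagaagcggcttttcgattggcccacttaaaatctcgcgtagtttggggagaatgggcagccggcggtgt
The Mcm5 window holds 2 matches that share bases on opposite strands, and the Mcm6 window holds 3, of which 2 share bases. The Gins3 and Pola1 windows hold 1 each.

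Levels are given as CPM, counts scaled to one common library total, with TMM factors to offset differences in library makeup. Libraries held 16527551 to 26658718 counts, so that 3 counts, the limit that a count of 0 allows, lay at 0.113 to 0.182 CPM; the lowest count of any replication gene was 10, for Orc1 in GFP control 3. L3mbtl3 itself stood at 1517, 1262 and 898 CPM in the L3mbtl3 gain libraries, against 54.0, 50.3 and 60.2 CPM in the GFP controls. In the libraries labelled knockout it stood at 67.2 and 70.4 CPM, against 55.7, 57.9 and 58.2 CPM in the E12.5 controls, so the count of this gene does not bear out the knockout label, and the exons removed are not given in the sources used here. Gain 1, gain 3 and labelled knockout 2 were female by Xist counts, and the other libraries male. Markers of ventral forebrain neurons varied within the E15.5 arms, with summed levels of 251, 237 and 28.0 CPM over 10 genes in the gain libraries and 896, 301 and 26.6 CPM in the GFP controls. Whether libraries of a group stem from different embryos is not stated in the labels. Sex differed within the gain and the labelled knockout groups, so neither group came from 1 embryo alone. The p-values reflect only the spread among these libraries, which may be technical among libraries of the same group and sex.

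The replication genes were far lower in sorted E15.5 GFP control cells than in E12.5 control tissue. Summed over the 44 genes, levels were 2921, 2241 and 1674 CPM in the 3 E15.5 GFP controls, against 5543, 5301 and 5315 CPM in the 3 E12.5 controls. In edgeR's quasi-likelihood test 38 of the 44 genes passed an adjusted p of 0.05 as lower and 0 as higher, and 0 were higher at an unadjusted p under 0.05, while 31.3% of the 15968 genes tested were called lower and 62.3% were called in either direction. The median log2 fold change was -1.29 over the replication genes, a level 2.45-fold lower, and -0.025 over all genes tested. For 39 of the 44 genes every E15.5 GFP control lay below every E12.5 control, which held for 37.6% of all genes tested; the order was the opposite for 1 gene, Orc6, and the groups overlapped for Orc4, Orc5, Gins4 and Pold2. DESeq2 called 39 lower and 0 higher, and limma with quality weights 40 lower and 2 higher. Of all genes tested, DESeq2 called 5646 of 26197 lower, and limma called 6348 lower and 6048 higher of 15968. Over all genes tested edgeR called 4963 higher and 4992 lower. With library totals as the only scaling these were 3590 higher and 6525 lower, and 41 replication genes were called lower. All 44 log2 fold changes were then below 0, so the signs of Orc4, Orc6 and Gins4 depend on the scaling. The order given for Orc6 holds for levels with TMM factors. Developmental stage, sorting and electroporation changed together in this comparison and cannot be told apart. Nor can fewer replicating cells be told apart from less RNA per cell in bulk libraries.

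**Figure D1:**
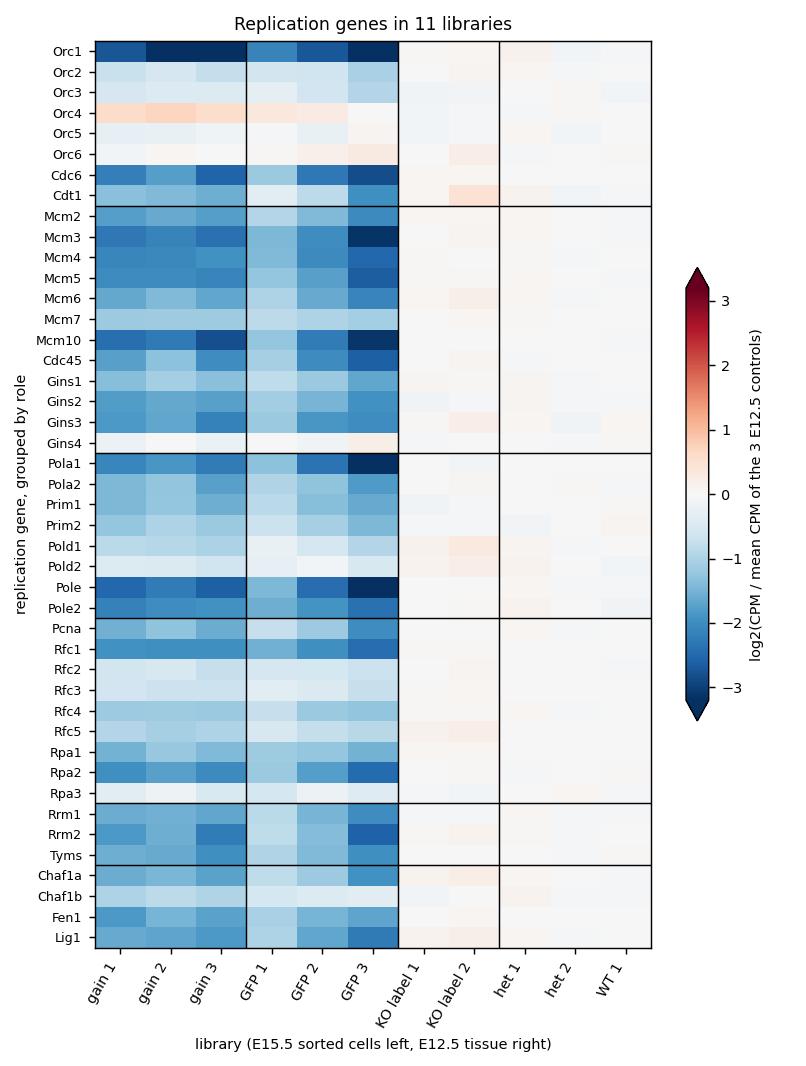
Heat map of the 44 replication genes (rows, grouped by role with lines between roles) in 11 libraries (columns), as log2 of CPM over the mean CPM of the 3 E12.5 controls; the darkest blue stands for values at or beyond the end of the scale. All 6 E15.5 libraries are blue for most genes, GFP control 3 most deeply, while Orc4, Orc5, Orc6 and Gins4 are near white or pale red there. Of these, the fold changes of Orc4, Orc6 and Gins4 turn below 0 with scaling by totals. The 5 E12.5 libraries are near white throughout.

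Among the origin genes the fall was uneven, with 4 of 8 called lower. Orc1, the ORC subunit whose level is tied to the cell cycle (GRCm38 chr4:108579423-108614833), stood at 4.83, 3.26 and 0.547 CPM in the E15.5 GFP controls, against 23.4, 19.9 and 20.6 CPM in the E12.5 controls, a log2 difference of -2.88 (edgeR adjusted p = 0.00561, SE 0.598). This was the largest fold change among the 44 genes, with the groups far apart and a wide spread among the sorted libraries. Cdc6, which joins ORC to load the MCM ring (GRCm38 chr11:98907801-98923940), stood at 21.9, 10.1 and 6.89 CPM at E15.5, against 49.2, 49.7 and 50.04 CPM at E12.5, a log2 difference of -1.93 (edgeR adjusted p = 0.00521, SE 0.395). Cdt1, its loading partner, stood at 29.2, 20.8 and 9.57 CPM at E15.5, against 40.3, 34.9 and 36.6 CPM at E12.5. All 3 Cdt1 levels at E15.5 were the lower ones, but the change did not pass the test (-0.91, SE 0.361, edgeR adjusted p = 0.0648). Cdt1 was called lower without GFP control 1 or without GFP control 3, by DESeq2 and limma, with library totals as the only scaling, with all 11 libraries in one fit and with the replicate block. Without GFP control 1 the log2 fold change was -3.51 for Orc1 and -2.56 for Cdc6, which moved both folds by over 1.5 times, and both stayed called. Orc2 and Orc3 were called lower by smaller amounts, -0.74 (SE 0.130) and -0.59 (SE 0.157) on the log2 scale. Orc4 stood at 99.4, 94.2 and 78.9 CPM at E15.5, against 77.3, 81.2 and 78.7 CPM at E12.5. Its log2 fold change of 0.20 did not pass (SE 0.101, edgeR adjusted p = 0.123) and became -0.065 when libraries were scaled by their totals alone, so its direction is not fixed; without GFP control 3 it was 0.298 and called higher, as it was by limma and with the replicate block. Orc6 stood at 56.4, 61.4 and 67.5 CPM at E15.5, against 53.7, 54.8 and 56.2 CPM at E12.5, with the sorted libraries above the tissue but no call (0.17, edgeR adjusted p = 0.144). The sign of Orc6 also turned with scaling by totals alone, so its direction is not fixed either. Orc5 averaged 28.8 ± 3.16 CPM in the E15.5 GFP controls and 30.2 ± 1.44 CPM in the E12.5 controls (SD, n = 3 each) and did not pass.

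The helicase genes fell nearly as a block, with 11 of 12 called lower and a median log2 fold change of -1.56. Mcm3, a ring subunit (GRCm38 chr1:20802968-20820312), stood at 96.2, 66.2 and 29.4 CPM in the E15.5 GFP controls, against 273, 259 and 251 CPM in the E12.5 controls, a log2 difference of -2.03 (edgeR adjusted p = 0.00386, SE 0.386). Mcm2 stood at 145, 105 and 68.3 CPM at E15.5, against 293, 276 and 271 CPM at E12.5, a log2 difference of -1.40 (edgeR adjusted p = 0.00304, SE 0.252). Mcm7 fell least of the ring, to 206, 185 and 173 CPM at E15.5, against 378, 360.0 and 361 CPM at E12.5, a log2 difference of -0.96 (edgeR adjusted p = 0.000167, SE 0.086). Every sorted library lay below every tissue library for each of the 6 ring genes. Mcm4, Mcm5 and Mcm6 were called lower as well, at -1.92, -1.76 and -1.50. Mcm10, which helps switch the loaded helicase on (GRCm38 chr2:4989714-5012791), stood at 32.6, 16.6 and 9.03 CPM at E15.5, against 78.8, 78.3 and 75.5 CPM at E12.5, a log2 difference of -2.00 (edgeR adjusted p = 0.00585, SE 0.419). Cdc45, the helicase cofactor, stood at 25.8, 13.4 and 8.86 CPM at E15.5, against 53.1, 54.0 and 54.9 CPM at E12.5, a log2 difference of -1.75 (edgeR adjusted p = 0.00542, SE 0.360). Without GFP control 1 the log2 fold change of Mcm10 was -2.61. The 4 GINS subunits split. Gins1, Gins2 and Gins3 were called lower, at -1.18, -1.48 and -1.63, whereas Gins4 stood at 39.5, 36.8 and 45.2 CPM at E15.5, against 39.9, 38.7 and 40.8 CPM at E12.5, with overlapping groups (0.026, SE 0.104, edgeR adjusted p = 0.84).

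Of the polymerase and primase genes 7 of 8 were called lower. Pole, the catalytic subunit of the leading-strand polymerase epsilon (GRCm38 chr5:110286306-110337474), stood at 58.6, 28.9 and 11.1 CPM in the E15.5 GFP controls, against 164, 155 and 154 CPM in the E12.5 controls, a log2 difference of -2.26 (edgeR adjusted p = 0.00905, SE 0.527). Pola1, the catalytic subunit of polymerase alpha (GRCm38 chrX:93304767-93632155), stood at 42.7, 20.5 and 11.3 CPM at E15.5, against 105, 104 and 106 CPM at E12.5, a log2 difference of -2.08 (edgeR adjusted p = 0.00581, SE 0.436). In both genes the highest sorted library was still well under the lowest tissue library. Without GFP control 1 the log2 fold changes were -2.99 for Pole and -2.73 for Pola1. Prim1, the catalytic primase subunit, stood at 51.7, 36.8 and 31.1 CPM at E15.5, against 93.4, 93.4 and 96.6 CPM at E12.5, a log2 difference of -1.24 (edgeR adjusted p = 0.00128, SE 0.182). Pole2, the second epsilon subunit, was called lower at -1.91, and Pola2 and Prim2 at -1.31 and -1.03. The lagging-strand polymerase delta differed in size, with Pold1 called lower at -0.55 (SE 0.171) and Pold2 at -0.28 (SE 0.131), which did not pass (edgeR adjusted p = 0.106).

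All 9 clamp, clamp loader and single-strand binding genes were called lower. Pcna, the sliding clamp, stood at 138, 102 and 57.8 CPM in the E15.5 GFP controls, against 239, 225 and 226 CPM in the E12.5 controls, a log2 difference of -1.21 (edgeR adjusted p = 0.00962, SE 0.286). Its pseudogene Pcna-ps2 held 343 to 1907 counts per library beside 1057 to 7031 for Pcna, so reads could be split between them and the level of Pcna is uncertain. Rfc1, the large subunit of the loader, stood at 56.2, 41.6 and 30.2 CPM at E15.5, against 163, 161 and 163 CPM at E12.5, a log2 difference of -1.92 (edgeR adjusted p = 0.000391, SE 0.213). The small subunit Rfc3 stood at 48.8, 45.3 and 37.6 CPM at E15.5, against 63.6, 62.1 and 62.4 CPM at E12.5, a log2 difference of -0.51 (edgeR adjusted p = 0.00631, SE 0.11). Rfc2, Rfc4 and Rfc5 lay between these, at -0.59, -1.04 and -0.71. Rpa2, of the heterotrimer that coats single-stranded DNA, stood at 43.3, 28.8 and 17.8 CPM at E15.5, against 94.1, 99.0 and 101 CPM at E12.5, a log2 difference of -1.71 (edgeR adjusted p = 0.00249, SE 0.293). Its partners Rpa1 and Rpa3 were called lower at -1.28 and -0.38. The change of Rpa3 was the smallest among these 9 genes.

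The 3 nucleotide supply genes moved by nearly equal amounts. Rrm2, the small subunit of ribonucleotide reductase, stood at 149, 99.2 and 43.5 CPM in the E15.5 GFP controls, against 269, 255 and 256 CPM in the E12.5 controls, a log2 difference of -1.42 (edgeR adjusted p = 0.018, SE 0.393). Tyms, thymidylate synthase, stood at 49.6, 36.2 and 24.9 CPM at E15.5, against 97.1, 93.2 and 98.4 CPM at E12.5, a log2 difference of -1.38 (edgeR adjusted p = 0.00226, SE 0.232). The Rrm2 call was lost without GFP control 2 (edgeR adjusted p = 0.0637) and without heterozygote 1 (edgeR adjusted p = 0.0524), and also with no filter on low counts (edgeR adjusted p = 0.057). The large reductase subunit Rrm1 was called lower at -1.37 (SE 0.261). All 4 maturation and assembly genes were called lower. Lig1, the ligase that joins Okazaki fragments, stood at 108, 67.4 and 44.3 CPM at E15.5, against 224, 204 and 211 CPM at E12.5, a log2 difference of -1.54 (edgeR adjusted p = 0.00409, SE 0.297). Fen1, which trims their flaps, was called lower at -1.38 and Chaf1a, the large subunit of the histone chaperone CAF-1, at -1.24. Chaf1b, its partner, stood at 43.3, 47.4 and 49.8 CPM at E15.5, against 69.6, 61.6 and 61.3 CPM at E12.5, a log2 difference of -0.45 (edgeR adjusted p = 0.00583, SE 0.096), a smaller difference.

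Per kilobase of exon, subunits of one complex stood closer together in the E12.5 tissue than in the sorted cells for most complexes. The length counts all annotated exons of a gene, not those of the transcripts present. Genes are therefore compared only roughly, and ranks and ratios within a complex may depend on the annotation. The 6 Mcm2 to Mcm7 genes lay within 2.49-fold of each other in the E15.5 GFP controls, lowest Mcm3 and highest Mcm7, and within 1.36-fold in the E12.5 controls. For ORC the ratio of the highest to the lowest subunit was 45.1 in the E15.5 GFP controls and 6.77 in the E12.5 controls. Orc6 was the highest at both stages, at 37.4 ± 3.35 CPM per kilobase at E15.5 and 33.2 ± 0.746 at E12.5 (SD, n = 3 each). The lowest was Orc1 at E15.5, at 0.827 ± 0.622, and Orc5 at E12.5, at 4.90 ± 0.233. For GINS the ratio was 9.18 in the E15.5 GFP controls and 3.23 in the E12.5 controls, with Gins2 lowest and Gins4 highest in both. It was 2.44 in the E15.5 GFP controls and 1.15 in the E12.5 controls for RPA, and 3.66 in the E15.5 GFP controls and 2.73 in the E12.5 controls for polymerase alpha with primase. RFC went the other way, with 3.16 in the E15.5 GFP controls and 3.97 in the E12.5 controls. These ratios are descriptions of group means, with no test.

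**Figure D2:**
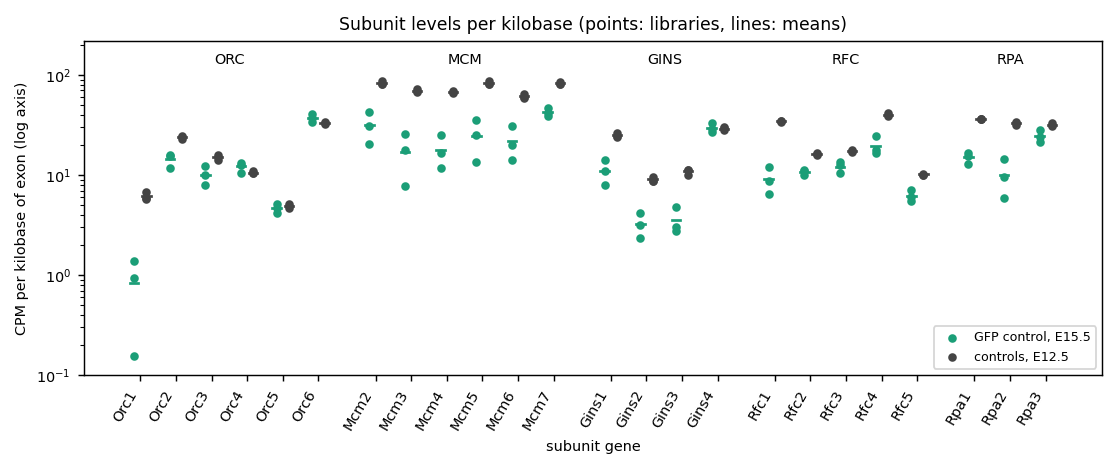
CPM per kilobase of exon (log axis) for the subunit genes of 5 complexes, in 3 E15.5 GFP controls (green, left of each pair) and 3 E12.5 controls (grey, right); points are libraries and lines are means. The Mcm2 to Mcm7 genes lie within 1.36-fold of each other at E12.5, and Orc1 drops to the bottom of the plot at E15.5 while the groups of Orc4, Orc5, Orc6 and Gins4 lie close together.

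Genes with and without the E2F letters were both called lower. All 9 genes with them were called lower, with a median log2 fold change of -1.63 and a range of -2.88 to -0.51. Of the 28 genes with a window but without the letters, 23 were called lower, with a median of -1.26 and a range of -2.03 to 0.20. The 5 uncalled genes among them were Orc4, Orc5, Orc6, Cdt1 and Pold2, and no letters were found in the Orc6 window printed above. Of the 7 genes without a window, 6 were called lower. The split depends on the window, since 14 of 37 genes held the letters when 50 bases after the start were added. It was not repeated with that window.

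Other genes of S phase followed the same direction in most cases. In a list of 42 further replication genes 30 were called lower and 3 higher, with a median log2 fold change of -1.04. The histone chaperone Asf1b stood at 9.15, 7.24 and 3.23 CPM in the E15.5 GFP controls, against 34.6, 35.5 and 31.1 CPM in the E12.5 controls, a log2 difference of -2.36 (SE 0.347, edgeR adjusted p = 0.00127). Shmt1, of the folate cycle, changed by -2.07 (SE 0.309, edgeR adjusted p = 0.00137). Gmnn, the inhibitor of Cdt1, changed by -2.02 (SE 0.340, edgeR adjusted p = 0.00227), and the checkpoint adaptor Clspn by -1.95 (SE 0.450, edgeR adjusted p = 0.00873). The 3 genes called higher were Pold4, Tonsl and Pole4, named after their values were seen. Pold4, the smallest polymerase delta subunit, stood at 6.63, 9.61 and 12.2 CPM in the E15.5 GFP controls, against 2.00, 3.17 and 2.52 CPM in the E12.5 controls. Of 21 genes that control entry into S phase, 14 were called lower and 0 higher in edgeR's test, with 0 of the others at an unadjusted p under 0.05 and 2 called higher by limma with quality weights. Among the genes called lower were Ccne1, the G1/S cyclin, at -2.03 (SE 0.327, edgeR adjusted p = 0.00189), and its kinase Cdk2 at -1.73 (SE 0.256, edgeR adjusted p = 0.00133). Rbl1, a pocket protein, changed by -1.74 (SE 0.513, edgeR adjusted p = 0.0228) and the repressor E2f7 by -1.56 (SE 0.343, edgeR adjusted p = 0.00715). E2f1 itself stood at 51.8, 45.3 and 25.9 CPM in the E15.5 GFP controls, against 47.7, 44.9 and 43.7 CPM in the E12.5 controls, and did not pass.

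Cell type markers differed along with the replication genes. Of 20 mitosis genes 19 were called lower in the E15.5 GFP controls, with a median log2 fold change of -1.73, larger than that of the replication genes; Cenpf, a kinetochore protein, changed by -2.54 (SE 0.610, edgeR adjusted p = 0.0102), Bub1 by -2.26 (SE 0.531, edgeR adjusted p = 0.00928), Cenpe by -2.21 (SE 0.554, edgeR adjusted p = 0.0121) and the proliferation marker Mki67 by -2.12 (SE 0.570, edgeR adjusted p = 0.0161). Of 12 apical progenitor markers 8 were called lower, and of 16 neuron markers 14 were called higher. Intermediate progenitor markers were mixed, with 5 of 10 called higher, 3 called lower and a median log2 fold change of 0.376. Summed neuron markers stood at 8701, 10380.0 and 12800.0 CPM in the E15.5 GFP controls, against 2707, 3039 and 2951 CPM in the E12.5 controls. Markers of most non-neural cells were lower in the sorted cells too. Summed endothelial markers (10 of 10 called lower) lay between 12.6 and 16.8 CPM in the E15.5 GFP controls, against 425 to 509 CPM in the E12.5 controls. Erythroid markers (10 of 10) lay between 29.4 and 128 CPM in the E15.5 GFP controls, against 2412 to 3167 CPM in the E12.5 controls. Meningeal markers (8 of 8) lay between 12.4 and 66.7 CPM in the E15.5 GFP controls, against 1629 to 1818 CPM in the E12.5 controls, and choroid plexus markers (8 of 8) between 10.1 and 22.4 CPM in the E15.5 GFP controls, against 545 to 621 CPM in the E12.5 controls. Of 10 microglia markers 4 were called lower, with sums between 16.1 and 40.8 CPM in the E15.5 GFP controls, against 65.6 to 73.1 CPM in the E12.5 controls. Defining markers at 0 included the choroid plexus Htr2c and Kl in GFP controls 2 and 3. The part of these cell types in the replication gene difference was not tested.

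Within the GFP controls the replication genes were not at one level. GFP control 1 was the highest of the 3 libraries for 38 of the 44 genes and GFP control 3 the lowest for 39, and both held for 38 genes, while 31.2% of all genes tested showed that order. The highest GFP control was a median of 1.785 times the lowest, with a range of 1.11 to 8.82 and the widest gap for Orc1. The same ratio had a median of 1.18 in the 3 gain libraries and 1.07 in the 3 E12.5 controls. It was 1.03 in the libraries labelled knockout, but from only 2 libraries, which keeps such a ratio lower. Over all genes the GFP controls also differed most among themselves (chi-square per degree of freedom 27.4 to 86.3, against 3.57 to 13.3 within the other groups). Markers moved with the replication genes. Summed mitosis genes stood at 1812, 1046 and 452 CPM in GFP controls 1 to 3, apical progenitor markers at 2183, 1547 and 732 CPM and neuron markers at 8701, 10380.0 and 12800.0 CPM, so the library with the most replication gene RNA also had the highest sums of mitosis and apical progenitor markers and the lowest sum of neuron markers. Single neuron markers did not all share that order, with Dcx at 1721, 1492 and 1468 CPM and Bcl11b at 374, 171 and 151 CPM in GFP controls 1 to 3. The summed ventral forebrain neuron markers, at 896, 301 and 26.6 CPM, had the same order as the replication genes. The part of cell makeup in this spread was not tested. Chaf1b, Orc5, Orc6 and Gins4 were highest in GFP control 3, against the general order.

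**Figure D3:**
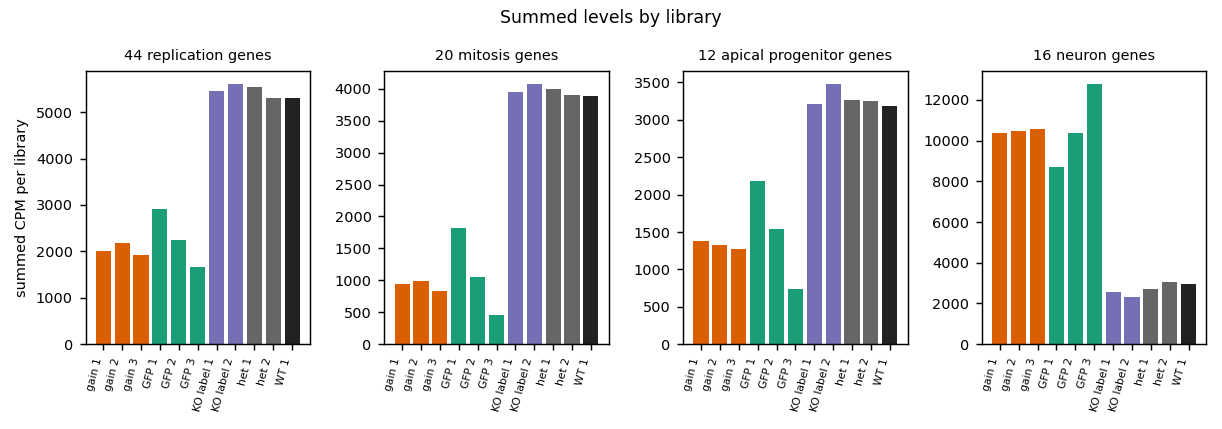
Summed CPM per library (bars, from 0) of the 44 replication genes, 20 mitosis genes, 12 apical progenitor genes and 16 neuron genes, for L3mbtl3 gain (orange), GFP control (green), labelled knockout (purple) and E12.5 control libraries (grey heterozygote, black wild-type). The 3 gain libraries lie between 1931 and 2184 CPM for the replication genes, inside the 1674 to 2921 CPM of the GFP controls, and the 5 E12.5 libraries lie between 5301 and 5614 CPM.

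In sorted E15.5 cells no replication gene was called between L3mbtl3 gain and the GFP controls. Their summed levels were 2014, 2184 and 1931 CPM in the L3mbtl3 gain libraries, against 2921, 2241 and 1674 CPM in the GFP controls, so the gain libraries lay inside the range of the controls. In edgeR's test 0 of 44 genes were called, as were 0.0136% of all genes (2 of 14698), while 2 replication genes and 1264 of all genes had an unadjusted p under 0.05. DESeq2 called 0 of the 44 genes as well. With quality weights limma called 4, Chaf1b, Pold1 and Pold2 lower and Orc4 higher. Of all 14698 genes tested limma called 746 lower and 1374 higher. The median log2 fold change was -0.17 over the 44 genes, of which 38 were below 0, and -0.030 over all genes tested. For 29 genes all 3 gain libraries lay inside the range of the GFP controls. The share of all genes with that order was not counted, so the count does not set the replication genes apart. Over all genes the GFP controls also differed more among themselves than the gain libraries did (chi-square per degree of freedom 27.4 to 86.3 against 8.93 to 13.3). The gain libraries lay below every GFP control for Mcm7, Rfc5 and Chaf1b (3 of 44, where 7.55% of all genes tested had that order), and Orc4 was the 1 gene with higher levels (8.99% of all genes tested).

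The replication genes nearest to a call after L3mbtl3 gain were Chaf1b and Orc4. Chaf1b stood at 32.3, 36.1 and 33.0 CPM in the gain libraries, against 43.3, 47.4 and 49.8 CPM in the GFP controls, a log2 difference of -0.46 (edgeR adjusted p = 0.464, SE 0.103). Orc4 stood at 119, 127 and 116 CPM in the gain libraries, against 99.4, 94.2 and 78.9 CPM in the GFP controls, a log2 difference of 0.42 (edgeR adjusted p = 0.486, SE 0.108). Both were clear of the range of the GFP controls. Among the licensing genes Orc1, Cdc6 and Cdt1 had the widest errors. Orc1 stood at 3.21, 2.24 and 1.26 CPM in the gain libraries, against 4.83, 3.26 and 0.547 CPM in the GFP controls (-0.36, SE 0.705), and Cdc6 at 10.96, 14.7 and 8.39 CPM in the gain libraries, against 21.9, 10.1 and 6.89 CPM in the GFP controls (-0.19, SE 0.434). Cdt1 stood at 14.9, 14.1 and 12.53 CPM in the gain libraries, against 29.2, 20.8 and 9.57 CPM in the GFP controls (-0.52, SE 0.367). All gain levels of these 3 genes lay inside the range of the GFP controls. In the helicase, Mcm2 stood at 82.4, 92.0 and 82.3 CPM in the gain libraries, against 145, 105 and 68.3 CPM in the GFP controls, and Mcm7 at 164, 166 and 167 CPM in the gain libraries, against 206, 185 and 173 CPM in the GFP controls. The log2 fold changes were -0.30 (SE 0.249) for Mcm2, -0.17 (SE 0.094) for Mcm7, -0.48 (SE 0.434) for Mcm10, 0.094 (SE 0.391) for Cdc45 and -0.24 (SE 0.230) for Gins2.

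No gene of the remaining roles passed either. Pola1 differed by 0.025 (SE 0.432), Prim1 by -0.16 (SE 0.202) and Pole by -0.18 (SE 0.511) on the log2 scale between gain and GFP control libraries. Pcna differed by -0.25 (SE 0.287), Rfc1 by -0.022 (SE 0.215), Rfc3 by -0.14 (SE 0.124) and Rpa2 by -0.19 (SE 0.300). Rrm2 stood at 72.7, 87.5 and 55.0 CPM in the gain libraries, against 149, 99.2 and 43.5 CPM in the GFP controls (-0.43, SE 0.405). Tyms differed by -0.32 (SE 0.251) and Lig1 by -0.17 (SE 0.294). The sign over the list rested on 1 library: without GFP control 1 the median became 0.086, 30 of 44 genes were above 0 and Orc4 was called higher, and without GFP control 3 the median became -0.34 and 42 genes were below 0. Without GFP control 1 the number of genes called over the whole table was 415. Summed mitosis genes stood at 949, 991 and 836 CPM in the gain libraries, against 1812, 1046 and 452 CPM in the GFP controls, and apical progenitor markers at 1384, 1331 and 1271 CPM in the gain libraries, against 2183, 1547 and 732 CPM in the GFP controls. Summed microglia markers lay between 6.06 and 9.23 CPM in the gain libraries, against 16.1 to 40.8 CPM in the GFP controls, and endothelial markers between 3.34 and 7.17 CPM in the gain libraries, against 12.6 to 16.8 CPM in the GFP controls. Of the markers tested 7 of 8 for microglia and 5 of 8 for endothelium had an unadjusted p under 0.05. The part of these markers in the gain values was not tested. In edgeR's test 0 of the 42 further replication genes, 0 of the 21 S phase control genes and 0 of the 20 mitosis genes were called after L3mbtl3 gain, with 4, 1 and 0 of them at an unadjusted p under 0.05. DESeq2 called 0 in each list, and limma with quality weights called 6, 2 and 1, where limma called 2120 of all 14698 genes tested. The genes nearest to a call in edgeR's test were Rnaseh2c at -0.52 (SE 0.173, edgeR adjusted p = 0.542), Rb1 at 0.36 (SE 0.123, edgeR adjusted p = 0.55) and Cdc20 at -0.50 (SE 0.272, edgeR adjusted p = 0.617).

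**Figure D4:**
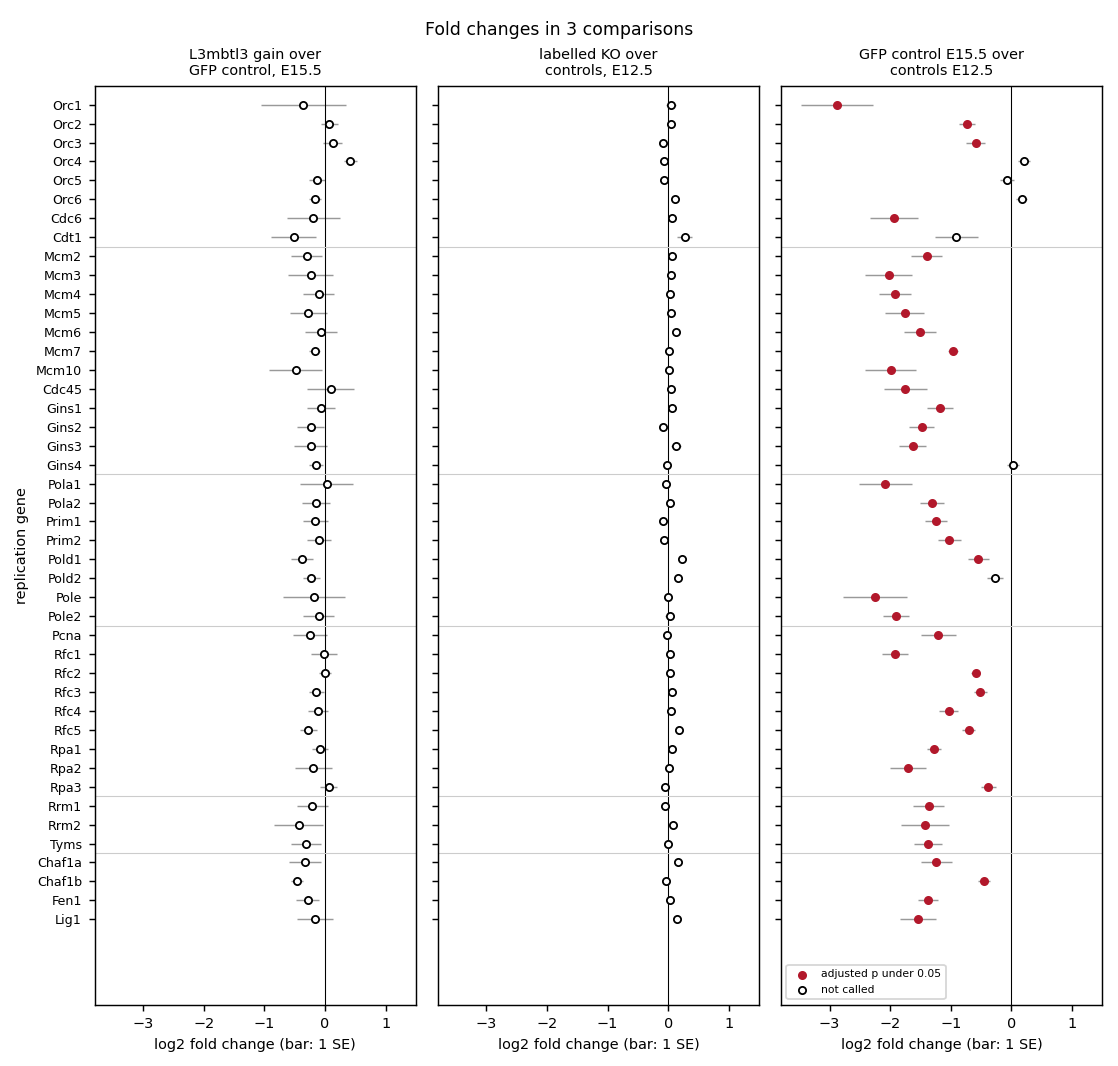
Log2 fold changes (points) with 1 SE (bars) of the 44 replication genes in 3 comparisons, L3mbtl3 gain over GFP control at E15.5, labelled knockout over controls at E12.5, and E15.5 GFP control over E12.5 controls; filled points have an adjusted p under 0.05. No point is filled in the first 2 panels, and 38 of 44 are filled in the third, all left of 0.

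In E12.5 tissue the libraries labelled knockout and the controls held the replication genes at nearly the same level. Summed levels were 5454 and 5614 CPM in the libraries labelled knockout, against 5543, 5301 and 5315 CPM in the E12.5 controls. In edgeR's test 0 of 44 genes were called, where 7.41% of all genes were (1213 of 16361). An unadjusted p under 0.05 was held by 6 of the 44 and by 3597 of all 16361 genes tested. DESeq2 called 1, Pold1, as higher, where it called 483 of all 26424 genes tested higher, and limma with quality weights called 0. The median log2 fold change was 0.037 over the 44 genes and -0.0002 over all genes tested, and the largest difference among the replication genes was 0.27 on the log2 scale, for Cdt1. All libraries labelled knockout lay above all controls for 9 genes, where 18.7% of all genes tested did, and below them for 4, where 19.9% did. Pold1 stood at 96.5 and 110.2 CPM in the libraries labelled knockout, against 92.9, 84.0 and 87.3 CPM in the controls, a log2 difference of 0.23 (edgeR adjusted p = 0.0515, SE 0.063). Chaf1a stood at 131 and 141 CPM in the libraries labelled knockout, against 126, 119.9 and 117 CPM in the controls, a log2 difference of 0.17 (edgeR adjusted p = 0.0522, SE 0.047). Both were higher in 2 of 2 libraries labelled knockout than in any control, just outside the threshold. Rfc5, Lig1, Mcm6 and Pold2 had the other unadjusted p values under 0.05, with log2 fold changes of 0.18, 0.15, 0.13 and 0.17. Values depended on single libraries. Without labelled knockout 1, which leaves 1 library in that group, log2 fold changes were 0.459 for Cdt1, 0.323 for Pold1, 0.222 for Chaf1a and 0.179 for Lig1. Without heterozygote 1, 3 genes were called higher (Chaf1a, Lig1 and Pold1), where 491 of all 16221 genes tested were.

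Errors in this comparison were small, with SEs between 0.034 and 0.123 on the log2 scale over the 44 genes. Among the origin genes Orc1 stood at 21.8 and 22.2 CPM in the libraries labelled knockout, against 23.4, 19.9 and 20.6 CPM in the controls (0.042, SE 0.082). Cdc6 stood at 51.7 and 52.1 CPM in the libraries labelled knockout, against 49.2, 49.7 and 50.04 CPM in the controls (0.065, SE 0.052). Cdt1 stood at 38.7 and 51.4 CPM in the libraries labelled knockout, against 40.3, 34.9 and 36.6 CPM in the controls (0.27, SE 0.122). The Cdt1 value rested on labelled knockout 2, since labelled knockout 1 lay inside the control range. Orc4 differed by -0.068 (SE 0.049) on the log2 scale, Mcm2 by 0.054 (SE 0.042), Mcm7 by 0.019 (SE 0.042), Mcm10 by 0.015 (SE 0.048), Cdc45 by 0.041 (SE 0.054) and Gins2 by -0.082 (SE 0.063). Pola1 differed by -0.034 (SE 0.046), Prim1 by -0.088 (SE 0.046), Pcna by -0.018 (SE 0.039), Rfc1 by 0.038 (SE 0.036) and Rfc3 by 0.056 (SE 0.051). Pole differed by -0.0084 (SE 0.041), Rpa2 by 0.0067 (SE 0.049) and Tyms by -0.0095 (SE 0.046). Rrm2 differed by 0.077 (SE 0.041), Chaf1b by -0.036 (SE 0.066) and Lig1 by 0.15 (SE 0.045).

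Of the 42 further replication genes 2 were called in the libraries labelled knockout, both higher, where 7.41% of all genes tested were called in either direction. Asf1b stood at 56.7 and 55.4 CPM in the libraries labelled knockout, against 34.6, 35.5 and 31.1 CPM in the E12.5 controls, a log2 difference of 0.73 (SE 0.062, edgeR adjusted p = 5.85e-05). Dna2, a nuclease and helicase of Okazaki fragment processing, stood at 83.4 and 76.7 CPM in the libraries labelled knockout, against 65.8, 59.7 and 57.0 CPM in the controls, a log2 difference of 0.39 (SE 0.066, edgeR adjusted p = 0.00459). Both were above the controls in 2 of 2 libraries. Of the 21 S phase control genes edgeR and limma called 0, with 4 at an unadjusted p under 0.05 in edgeR, and DESeq2 called 1; E2f7 was nearest in edgeR at 0.28 (SE 0.097, edgeR adjusted p = 0.133). Of the 20 mitosis genes 1 was called, beside the same 7.41% of all genes tested. It was Plk1, a mitotic kinase, at 0.27 (SE 0.061, edgeR adjusted p = 0.0211). Over the same libraries 3 of 12 apical progenitor markers, 6 of 10 intermediate progenitor markers, 5 of 16 neuron markers and 6 of 8 choroid plexus markers were called lower, and 4 of 10 ventral markers higher. Most apical progenitor markers went the other way, with 8 of 12 above 0 and a median log2 fold change of 0.097. The part of all these markers in the values above was not tested. The gain and stage comparisons share the GFP controls, and the labelled knockout and stage comparisons share the E12.5 controls, so their values are not independent of each other.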

How the data were processed

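Polyadenylated RNA was sequenced as single-end reads of 75 bases from stranded libraries, per the labels' protocols. The authors deposited raw read counts per gene, which featureCounts 2.0.1 summed over exons on the reverse strand setting, per the file headers. The command in the header sets no option for reads with several matches or reads that overlap several genes, so genes with near copies are uncertain. CASAVA 1.9, FastQC 0.11.8, HISAT2 2.2.1, SAMtools 1.9, deepTools 3.3.0 and GRCm38 are named in the submitters' processing notes. Tables held 46078 identifiers, 935 of them without a symbol, and no row that names no gene (0).

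The main test was the two-sided quasi-likelihood test of edgeR 4.0.16 (R 4.3.3), fitted robustly after filterByExpr and TMM scaling. P-values were adjusted by Benjamini-Hochberg over every gene tested, and genes under 0.05 were called. All 44 replication genes passed the count filter in each of the 3 comparisons. The SE of a log2 fold change was taken as its size over the root of the F statistic. Levels are CPM with TMM factors over all 11 libraries, and levels per kilobase divide them by the exon length in the deposited tables. Alternatives were DESeq2 1.42.0, limma 3.58.1 with voom quality weights, library totals as the only scaling, no filter on low counts, 1 fit over 11 libraries, a term for embryo sex (Xist over 1000 counts), a replicate block, heterozygote controls only, each library left out, and a promoter window with 50 more bases. The method was tested on simulated data first.

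The 44 genes, the other lists and the tests were chosen with earlier results of these data known. Named genes were 20 fixed representatives and, per comparison, the called genes with the largest changes, up to 6 in each direction, or the 2 with the smallest p where none was called. From each other list up to 4 called genes were named, or 1. Replicates differed beyond sampling noise (chi-square per degree of freedom 3.57 to 86.3). The limit of 3 counts covers counting error only, while the SEs also include the spread among libraries. The CD15-positive E14.5 samples that the series' design mentions were not analysed here.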

Additional observations from a re-analysis of the deposited data

How the results depend on the processing

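In the stage comparison 34 to 41 of 44 replication genes were called lower under every alternative. Scaling by library totals moved the median log2 fold change over all genes to -0.296 (DESeq2 -0.26, no filter -0.239) and that of the replication genes to -1.558, which is -1.26 relative to all genes, against -1.27 with TMM (DESeq2 -1.076, no filter -1.078). That scaling turned Orc4 to -0.0652 and left 0 of 44 replication genes above 0, so Orc6 and Gins4 turned too. Limma called 2 replication genes higher and the replicate block 1 (0 to 1 with a library left out). The sex term could not be fitted there, since all those libraries were male. In the gain comparison the number of genes called was 81 with DESeq2, 2120 with limma (3 replication genes lower, 1 higher), 97 with all 11 libraries in one fit (1 lower), 1 with the sex term, and 0 to 415 with a library left out, when the median of the replication genes ran from -0.339 to 0.086 and 0 to 1 were called higher. Signs turned with limma for Cdc6 (0.0698), Pole (0.00134) and Rfc1 (0.0269), with the sex term for Cdc6 (0.175) and Pole (0.0241), and with the replicate block for Pole (0.107) and Rfc1 (0.0263). In the labelled knockout comparison DESeq2 and library totals each called 1 replication gene higher, and no filter called 6 (2266 genes in all); 15 genes were called with 11 libraries in one fit, 678 with the sex term, 603 with heterozygote controls only and 603 to 1785 with a library left out, when 0 to 6 replication genes were called higher. Signs of values near 0 turned for Rpa2 (-0.00017, library totals), for Mcm7 (-0.0144), Pola1 (0.0185), Pole (0.00303), Rpa2 (-0.0171) and Tyms (0.00678) with the sex term, for Tyms with the replicate block (0.000417), and for Mcm10 (-0.000901) and Tyms (0.01) with heterozygote controls only. The cause was not tested. E2F letters were found in 14 of 37 promoters with the longer window.

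With a library left out, signs also turned in the gain comparison, where log2 fold changes ran from -0.844 to 0.268 for Orc1, from -0.495 to 0.442 for Cdc6, from -0.542 to 0.00846 for Mcm2, from -0.823 to 0.144 for Mcm10, from -0.425 to 0.00262 for Gins2, from -0.312 to 0.0909 for Prim1, from -0.597 to 0.558 for Pole, from -0.521 to 0.0871 for Pcna, from -0.22 to 0.247 for Rfc1, from -0.458 to 0.191 for Rpa2, from -0.785 to 0.0328 for Rrm2, from -0.426 to 0.245 for Lig1, from -0.199 to 0.643 for Cdc45, from -0.322 to 0.693 for Pola1. With a library left out, signs also turned in the labelled knockout comparison, where log2 fold changes ran from -0.0233 to 0.024 for Pole, from -0.0346 to 0.00928 for Pcna, from -0.0236 to 0.0365 for Rpa2, from -0.0886 to 0.0283 for Chaf1b, from -0.00328 to 0.119 for Orc1, from -0.0181 to 0.0566 for Mcm7, from -0.0826 to 0.0148 for Pola1, from -0.033 to 0.01 for Tyms, from -0.000901 to 0.027 for Mcm10.

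Same-numbered libraries did not deviate together in every pair (r of 0.172, -0.00364 and 0.279 between gain and GFP control libraries, -0.0532, -1.97e-05 and 0.0561 at E12.5). Gain 1 and gain 3 correlated best with the GFP control of their own number, while gain 2 correlated better with GFP control 1. The labelled knockout libraries mirror each other around their mean, so the E12.5 values cannot tell whether numbers pair libraries. Whether a number marks a shared litter or batch was not tested, and the main test paired no libraries. With the replicate block 3 genes were called after gain, 948 in the labelled knockout comparison and 10880 between the stages.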
